A study of Capra hircus with 21 samples.

Results

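Mitochondrial ribosomal proteins were followed through goat (Capra hircus) preimplantation development. Genes were taken by symbol alone, as every row whose symbol begins with MRPL or MRPS and a digit. The rule found 58 of the 19040 genes in the table, 37 with an MRPL and 21 with an MRPS symbol. RNA had been sequenced from in vivo matured oocytes and from 6 stages of in vivo embryos (2-cell, 4-cell, 8-cell and 16-cell embryos, morulae and blastocysts). Each of the 7 stages had 3 libraries, A, B and C, which makes 21. The labels give no breed, age, treatment, number of animals or number of embryos per library, and the note on morula A says that its reverse reads were damaged and left out. Whether the 3 libraries of a stage had separate source animals is not stated, so p-values measure the spread between these libraries, which may be technical. In whole oocytes and embryos, fewer cells of a type and less RNA per cell cannot be told apart.

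The mitochondrial ribosome sits in the mitochondrial matrix and translates the few messenger RNAs of the mitochondrial genome, all of which encode subunits of the respiratory chain and ATP synthase. Its ribosomal RNAs come from the mitochondrial genome, while its proteins are encoded in the nucleus, made in the cytosol and imported. Some of these proteins have counterparts in bacterial ribosomes and others are particular to mitochondria. The oocyte supplies the embryo with its mitochondria and with maternal messenger RNA, and the embryo's own genome takes over transcription during cleavage.

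A list of 78 symbols named for the mammalian mitochondrial ribosome, 1 of them later placed elsewhere, held all 58 genes. Of its symbols 20 matched no row, the 1 placed elsewhere among them. MRPS30 and MRPS18A lie in the large subunit despite their symbols. The 58 genes lay on 22 chromosomes, 8 of them on chromosome 19, and spanned 408 to 102551 bases (median 7128). The deposited values are RPKM (reads scaled by gene length and library size), and the length used was the full gene span with introns. At equal read numbers a long gene gets a low RPKM, and levels are not ranked between genes. Values were compared between stages within a gene, on log2(RPKM + 1), in a single limma model. To be called, a gene needed an adjusted p below 0.05 over all 4253 genes tested and a log2 fold change of 1 or more in either direction. Of the 58 genes, 42 reached 1 RPKM in at least 3 libraries and were tested. Only 27 of these would have passed on the libraries up to the 8-cell stage, and 15 passed through later libraries, so counts over the 42 lean towards genes that are high late. As a second scale, all 58 genes were tested as RPM, the reads of a gene per 1000000 reads in listed genes of its library, with no division by span.

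Libraries held 8.47 to 26.7 M reads in listed genes. GDF9, an oocyte growth factor, went from 63.2 ± 8.78 RPKM (mean ± SD, n = 3) in oocytes to 0.0527 ± 0.0125 in blastocysts. KRT8, a keratin, reached 114 ± 39.3 in blastocysts, so these markers told oocytes and blastocysts apart as labelled. Mean GDF9 reads were 8100 in oocytes and 33840, 19450 and 24820 at the 2-cell, 4-cell and 8-cell stages, so GDF9 does not single out oocytes. GDF9 stayed higher in 16-cell C (57.6) and morula C (11.1) than in their stage mates (at most 9.71 and 0.647). Genes of the mitochondrial genome took 27.1 to 40.1% of gene reads in blastocysts and at most 4.6% up to the 8-cell stage. Some marker genes of other cell types had many reads, and their part in the results was not tested. In RPM, explained above, 5 stromal genes summed to 312.9 to 413.4 in oocytes and 2.89 to 10.2 in blastocysts, and 10 cumulus and granulosa genes to 94.8 to 160.3 and 4.89 to 15.6. Most of this was DCN (332.5, 297.6 and 394.9 in oocytes, and still 131.7 in morula C) and STAR (106.7, 77.3 and 142.5), while AMH, FSHR, LHCGR and INHA were at 0 in all 3 oocyte libraries. In blastocysts 4 oviduct and uterine genes summed to 46.4 to 187.6. Most of this was EPCAM (1877, 545 and 1629 reads), then CDH1 (193, 68 and 123), and embryos make both genes too. FOXJ1 had 0, 40 and 0 reads there and PAX8 3, 6 and 0. In every library 5 blood genes stayed at or below 11.1 RPM and 2 sperm genes at or below 39.2.

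Few genes of the mitochondrial ribosome were called between the oocyte and the 8-cell stage, 15 of 42 rose at the 16-cell stage (19.4% of all genes tested did), 18 rose in the morula (11.4%) and 15 fell in the blastocyst (25.3%) on the RPKM scale. The fall in the blastocyst depended on scaling, with 2 to 8 genes lower under other scalings between libraries. Levels of all 58 genes summed to 2674, 2198 and 2484 RPM in oocytes A, B and C and to 1805, 1680 and 2615 at the 8-cell stage. At the 16-cell stage the sums were 2312, 3645 and 3086, and in morulae 7182, 6319 and 5612, with every morula above every earlier library. Blastocysts gave 3883, 2292 and 6210. On this scale blastocyst B was as low as an oocyte and blastocyst C as high as a morula. The scale counts reads of the mitochondrial genome, which were 40.1% of gene reads in blastocyst B. Per 1000000 reads of nuclear genes the blastocysts gave 5502, 3824 and 8518, all above the oocytes (2213 to 2697), and the morulae 5792 to 7808.

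**Figure D1:**
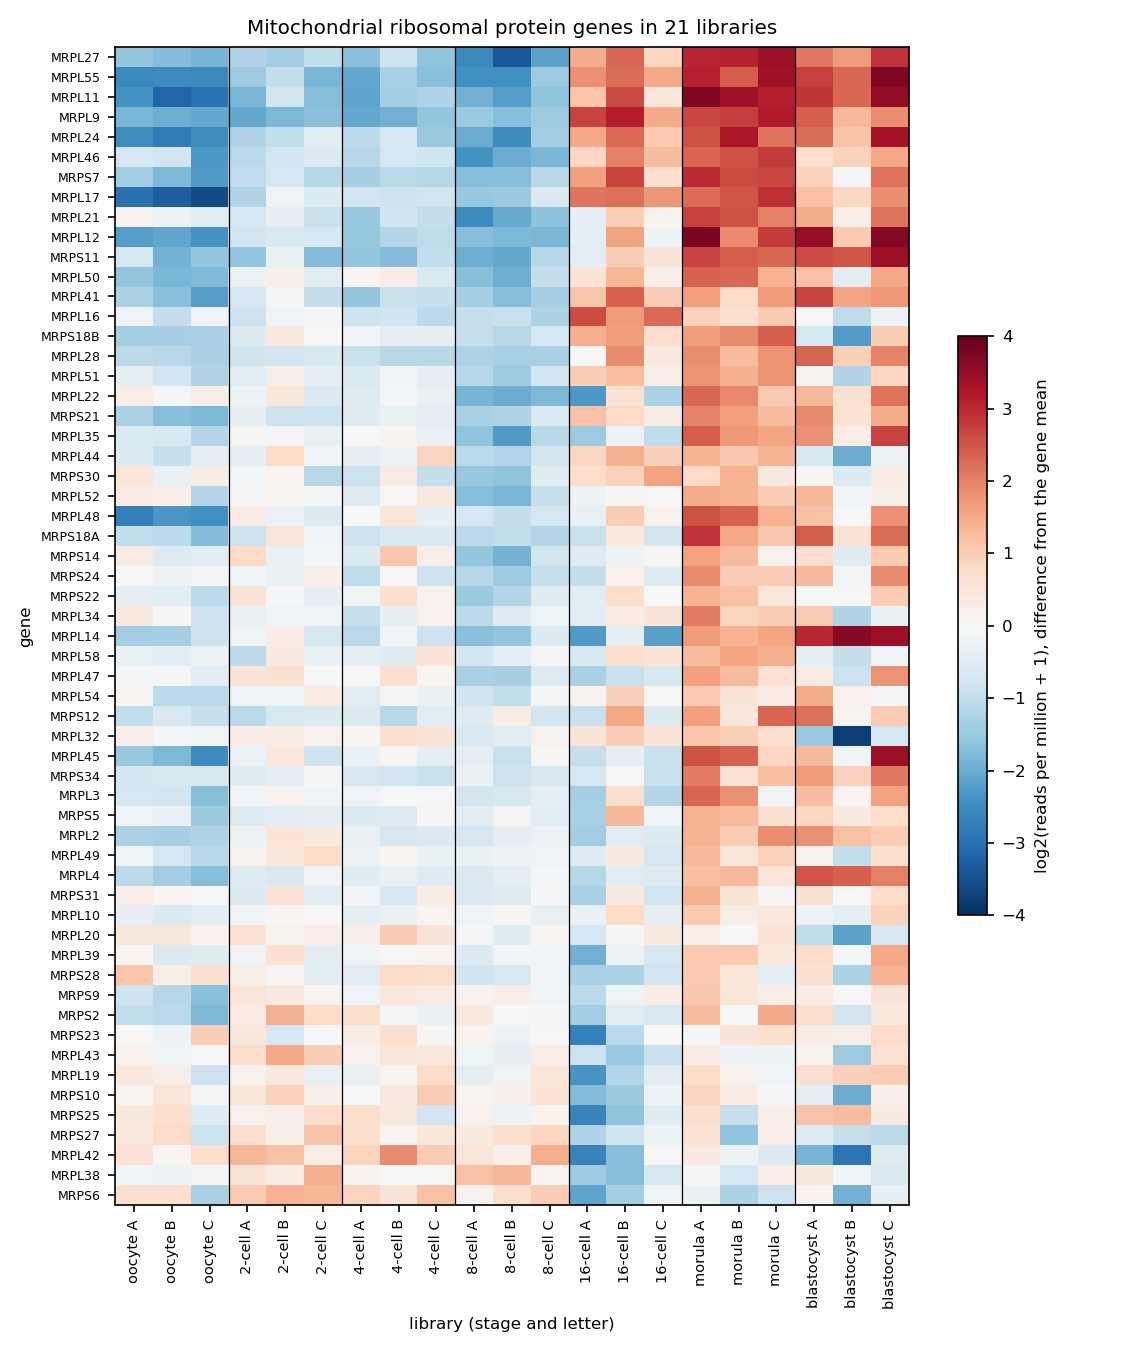
Level of each of the 58 genes (rows) in each of the 21 libraries (columns, grouped by stage), as log2(RPM + 1) less the mean of the gene over all libraries, with colours held at the ends of the scale. Most genes are blue up to the 8-cell stage and red in morulae, where 34 of 58 genes had their highest stage mean, while a group at the bottom is palest or blue at the 16-cell stage.

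On RPM and RPKM, the stage at which a gene was highest was most often the morula. Mean RPM was highest in the morula for 34 of 58 genes, in the blastocyst for 14, at the 2-cell stage for 4, at the 4-cell and 16-cell stages for 2 each, and in the oocyte and at the 8-cell stage for 1 each. On RPKM it was the morula for 38 and the blastocyst for 9. The lead of the morula over the blastocyst depended on scaling. Fold changes from morula to blastocyst lay above 0 for 6 of 42 tested genes on RPKM. With scaling to reads of nuclear genes it was 20 of 43, with median-ratio scaling 20 of 42 and with quantile normalization 25 of 42. How many of all genes were highest in the morula was not counted. The lowest mean RPM was in the oocyte for 24 genes, at the 8-cell stage for 17, at the 16-cell stage for 11, in the blastocyst for 5 and at the 4-cell stage for 1. In the moderated F test over all stages 40 of the 42 were called, against 93.8% of all genes tested. The 2 that were not called were MRPS23 and MRPS31.

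A few genes supplied much of the early signal. In oocytes MRPL42, MRPS23, MRPL20 and MRPL32 together gave 50.8% of the reads of the 58 genes, and at the 8-cell stage 55.9%, of which MRPL42 alone gave 23.9%. At the 16-cell stage MRPL17 led with 11.1%, and the 4 leading genes gave 33.8%. In morulae the 4 leading genes gave 26.3%. These are shares of reads, not levels per length.

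**Figure D2:**
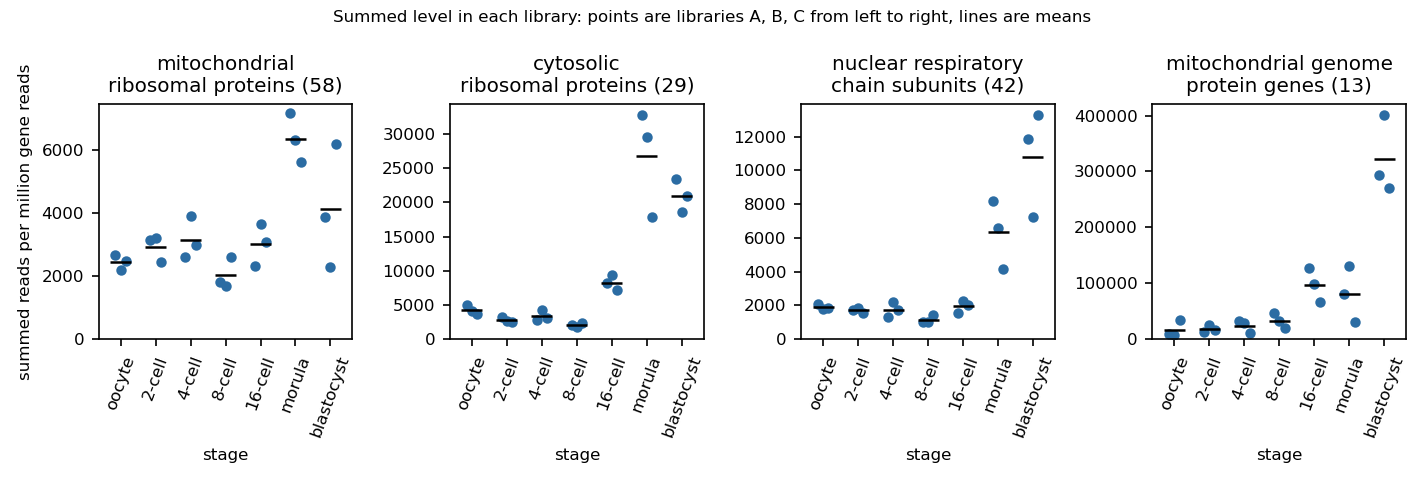
Summed RPM (y axis, linear from 0, own scale in each panel) in each library for 4 sets of genes, with points for libraries A, B and C and lines for stage means. Sums of the 58 mitochondrial ribosomal protein genes lie between 5612 and 7182 in morulae, while blastocysts spread from 2292 to 6210.

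From oocyte to 2-cell stage 3 of the 42 genes rose (7.14%, against 4.37% of all genes tested) and 0 fell (0.4% of all genes), and the median log2 fold change was 0.26, against 0.19 over all genes. MRPL17, a large-subunit protein with a bacterial counterpart (chromosome 15, bases 35957432 to 35958752 in the table, whose genome build is not given in the sources used here), read 2.54, 1.96 and 1.61 RPKM in the oocyte libraries and 10.6, 21.2 and 16.6 at the 2-cell stage. The stages did not overlap, and MRPL17 rose by 2.46 on the log2 scale (SE 0.40, adjusted p = 0.000688). Among the 42 tested it was the only gene called from oocyte to 8-cell stage on RPKM (1.93, adjusted p = 0.00198), where 8.02% of all genes were called higher and 3.48% lower. On RPM 4 of 58 rose over this span (MRPL17, MRPL48, MRPS2 and MRPS9; 11.8% of all genes) and 3 fell (MRPL21, MRPL22 and MRPS30; 2.95%). MRPL41, a mitochondria-specific large-subunit protein, read 2.24, 1.47 and 0.78 in oocytes and 4.46, 6.83 and 3.4 at the 2-cell stage (adjusted p = 0.0465). MRPL43, another such protein, read 1.48, 1.07 and 1.28 and then 2.74, 5.11 and 3.43 (adjusted p = 0.024). Both calls were lost on RPM and with median-ratio, quantile or nuclear scaling, and that of MRPL41 also with the replicate block (adjusted p = 0.0613). The adjusted p of MRPL41 was 0.053 to 0.204 without any 1 of the 6 libraries, and that of MRPL43 0.0632 to 0.111 when oocyte B, oocyte C, 2-cell B or 2-cell C was left out.

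Tested on RPM, 7 of 58 genes rose at the 2-cell stage, against 9.1% of all genes. These were MRPL17, MRPL48, MRPS2, MRPL24, MRPL50, MRPS9 and MRPL2. MRPL48, a large-subunit protein whose gene spans 51889 bases and which was therefore too low in RPKM to be tested, read 2.13, 3.26 and 2.85 RPM in oocytes and 25.7, 17.1 and 13.5 at the 2-cell stage. No 2-cell library was near an oocyte library, and MRPL48 rose by 2.36 (adjusted p = 0.0047). MRPS2, of the small subunit, was at 0.851, 0.725 and 0.051 RPM and then at 3.51, 8.63 and 5.01 (2.09, adjusted p = 0.0092).

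Between the 2-cell and 4-cell stages 0 of the 42 genes were called in either direction (0% of all genes in each), with 2 genes at an unadjusted limma p under 0.05. Between the 4-cell and 8-cell stages 0 were called as well, against 0.588% of all genes higher and 0.0941% lower, with 6 genes at an unadjusted p under 0.05. There the sign was nonetheless lopsided: 5 of 42 genes had a fold change above 0, and the median was -0.25, while that of all genes was 0.00. The median was also -0.25 for cytosolic ribosomal proteins and -0.22 for nuclear-encoded respiratory chain subunits. Summed RPM of the mitochondrial ribosomal protein genes overlapped, with 2593, 3907 and 2989 at the 4-cell and 1805, 1680 and 2615 at the 8-cell stage. The 42 genes share the same libraries, so their signs are not independent, and the skew was not tested. With quantile normalization 2 genes were called lower and 0 higher, where 36 and 52 of all 4253 genes were called. MRPL35 read 3.49, 3.84 and 2.7 RPKM at the 4-cell and 1.21, 0.716 and 1.54 at the 8-cell stage, lower in all 3 libraries though not called.

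**Figure D3:**
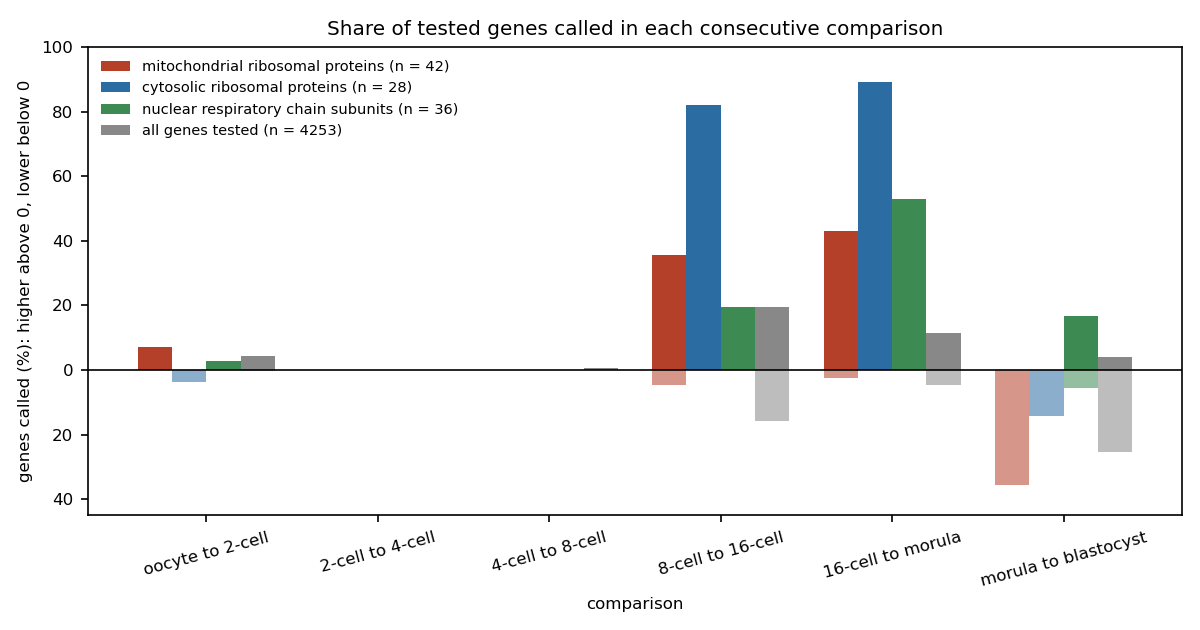
Percentage of tested genes called higher (above 0) or lower (below 0, paler) in each consecutive comparison for 3 sets and for all genes tested. Mitochondrial ribosomal proteins were called higher in 35.7% at the 16-cell stage and 42.9% in the morula, below cytosolic ribosomal proteins in both, and lower in 35.7% in the blastocyst.

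From the 8-cell to the 16-cell stage 15 of the 42 genes rose (35.7%, against 19.4% of all genes) and 2 fell (4.76%, against 15.9%). The median fold change was 0.48 on the log2 scale, against -0.14 over all genes. All 15 had 16-cell libraries above every 8-cell library. Genes called with this fold threshold are picked for such a gap, and it was not counted over all genes. Without the span, on RPM, 22 of 58 rose and 8 fell, against 17.1% and 22.4% of all genes. The median of all genes moved from -0.14 to 0.12 with median-ratio scaling, which gave 18 higher and 1 lower, against 24.3% and 8.46% of all genes.

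Among large-subunit proteins with bacterial counterparts, MRPL17 read 8.68, 8.63 and 15.1 RPKM at the 8-cell and 94.5, 90.6 and 69.2 at the 16-cell stage (2.89, SE 0.40, adjusted p = 8.77e-06). MRPL24, which lies near the exit of the peptide tunnel, read 0.8, 0.429 and 1.21 and then 10.1, 15.9 and 6.92 (2.68, SE 0.47, adjusted p = 0.000115). MRPL16 (chromosome 15, bases 497008 to 500827), read 2.08, 2.02 and 1.44 and then 20.6, 10.2 and 15.7 (2.49, SE 0.29, adjusted p = 1.64e-06). In these 3 genes each 16-cell library exceeded the highest 8-cell library several times over. MRPL27 rose from a mean of 0.126 to 3.16 RPKM and MRPL11, of the stalk base where elongation factors dock, from 0.3 to 3.41. MRPL9 went from 0.0388, 0.0253 and 0.0374 to 1.32, 1.67 and 0.538, so it was barely detected before the 16-cell stage, and MRPL21 rose from 0.456 to 2.06.

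In the group without bacterial counterparts, MRPL41 read 2.46, 1.59 and 2.26 RPKM at the 8-cell and 14.8, 33.5 and 13.1 at the 16-cell stage (2.68, SE 0.39, adjusted p = 1.77e-05). MRPL55 read 0.132, 0.129 and 0.365 and then 4.25, 5.26 and 3.33 (2.12, SE 0.34, adjusted p = 4.28e-05). Neither gene overlapped between the stages. MRPL51 rose from a mean of 9.5 to 32.6 RPKM, MRPL46 from 0.17 to 1.87, MRPL50 from 0.542 to 2.3 and MRPS30 from 1.32 to 5.39. In the small subunit MRPS18B, also without a bacterial counterpart, rose from 2.48 to 9.98. MRPS7, which does have a bacterial counterpart, is a protein of the head that binds the small ribosomal RNA. It read 0.194, 0.183 and 0.322 and then 2.69, 5.3 and 1.26 (1.61, adjusted p = 0.000711).

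The 2 genes that fell were both leaders of the oocyte and early embryo. MRPL42, of the large subunit, read 11.6, 9.14 and 20.1 RPKM at the 8-cell and 1.04, 1.95 and 6.51 at the 16-cell stage (-1.97, SE 0.51, adjusted p = 0.00294), highest in 16-cell C, the library with the most GDF9 of its stage. MRPS23, of the small subunit, read 19.3, 14.6 and 15.7 and then 2.18, 6.37 and 13.9 (-1.31, SE 0.48, adjusted p = 0.0269). The order of 16-cell libraries was the same in both genes, with A lowest and C highest. The MRPS23 call was lost without 16-cell A (-0.73, adjusted p = 0.208), without 16-cell B or 8-cell A or C (0.0515 to 0.0821), and with median-ratio scaling (0.1).

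A further 6 genes fell at this step on RPM. MRPL38 went from 6.89, 7.78 and 2.65 RPM to 0.282, 0.0784 and 1.11 (-2.14, adjusted p = 0.000392). MRPS6, whose gene spans 65318 bases, went from 26.6, 39 and 49.2 to 4.8, 8.78 and 21.4 (-1.82, adjusted p = 0.0156). The others were MRPS25 (-1.61), MRPS10 (-1.41), MRPS27 (-1.36) and MRPL19 (-1.30). Gene reads of 16-cell embryos thus held a larger share of 22 genes and a smaller share of 8 genes of the same ribosome.

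**Figure D4:**
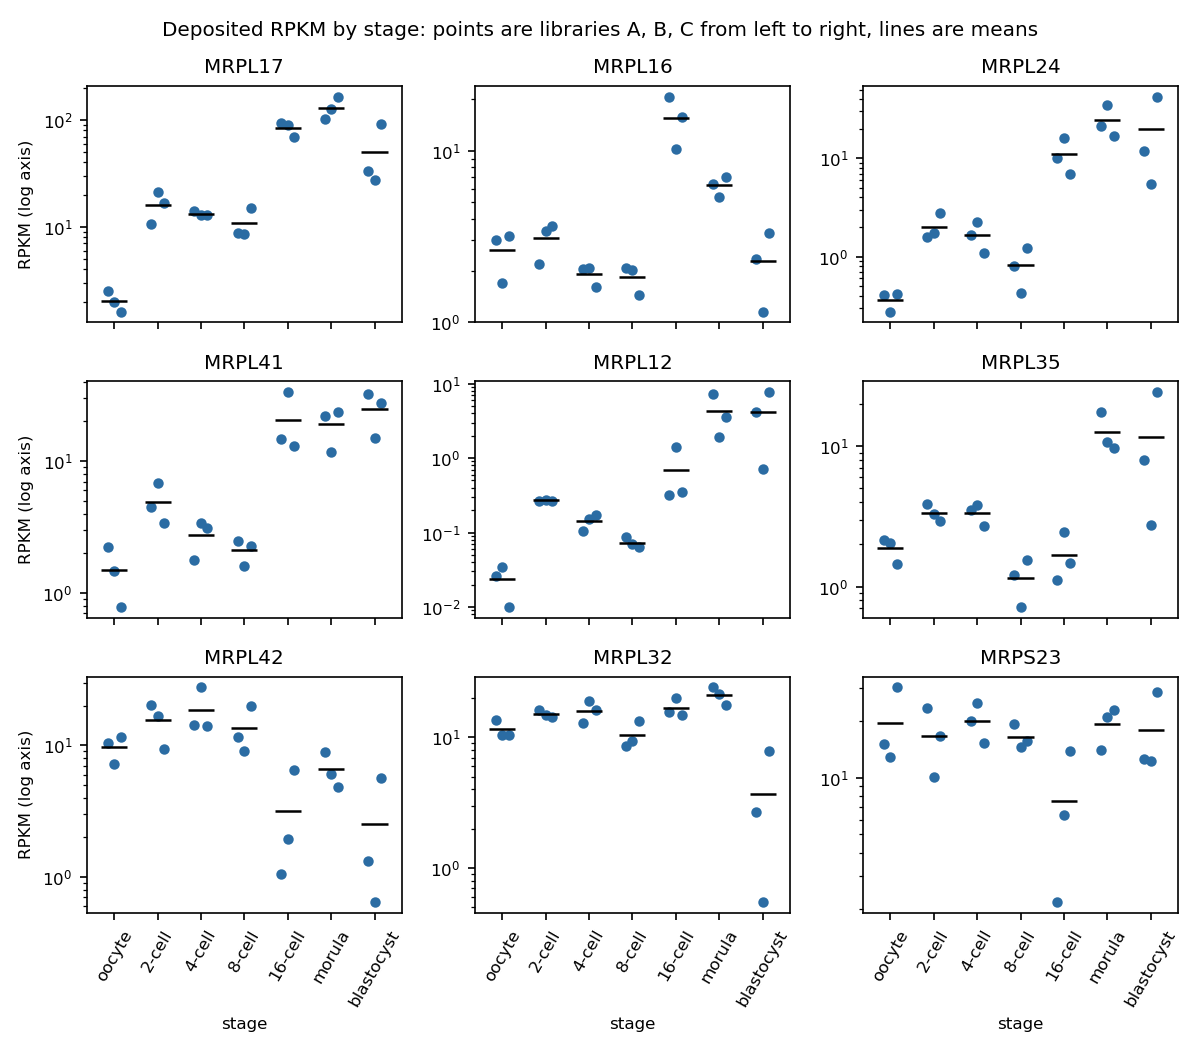
Deposited RPKM (log axis, own scale in each panel) of 9 genes by stage, with points for libraries A, B and C and lines for means. MRPL17, MRPL16, MRPL24 and MRPL41 step up at the 16-cell stage, MRPL12 and MRPL35 in the morula, and MRPL42 and MRPS23 dip at the 16-cell stage.

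From the 16-cell stage to the morula 18 of the 42 genes rose (42.9%, against 11.4% of all genes) and 1 fell (2.38%, against 4.66%). The median fold change was 0.92, against 0.01 over all genes, and 39 of 42 genes lay above 0. On the scale without the span 26 of 58 rose and 1 fell, against 8.14% and 9.91% of all genes. Without 16-cell A 10 genes were called and without morula A 11, where the share of all genes is not given here. Quantile normalization gave 11 higher and 1 lower, where 352 and 250 of all 4253 genes were called. Leaving out both 16-cell C and morula C gave 19 higher and 1 lower, where 577 and 378 of all 4151 genes were called.

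MRPL35, a large-subunit protein with a bacterial counterpart (chromosome 11, bases 48263915 to 48270488), read 1.11, 2.46 and 1.48 RPKM at the 16-cell stage and 17.5, 10.6 and 9.63 in morulae (2.33, SE 0.44, adjusted p = 0.0011). MRPL21 read 1.29, 3.06 and 1.81 and then 11.7, 10.2 and 7.18 (1.83, SE 0.35, adjusted p = 0.00112), and MRPL11 2.38, 6.42 and 1.44 and then 15.1, 12 and 10 (1.75, SE 0.36, adjusted p = 0.00209). All morulae lay above all 16-cell libraries in these 3 genes. MRPL12, the stalk protein that recruits elongation factors, read 0.316, 1.39 and 0.347 and then 7.19, 1.89 and 3.61 (1.56, adjusted p = 0.00881), with adjusted p = 0.0686 without morula A. MRPL47 rose from a mean of 1.67 to 7.87 RPKM (adjusted p = 0.00825, and 0.0523 without morula A), but its span shares 3102 bases with ACTL6A on the opposite strand, so its reads may be shared.

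The rise also took in MRPL27 (3.16 to 9.84 RPKM), MRPL22 (0.577 to 3.17), MRPL2 (0.375 to 2.09), MRPL58, a peptidyl-tRNA hydrolase built into the large subunit (4.83 to 11.4), and MRPL34 (1.99 to 5.84), whose short span lies wholly within ABHD8 and PLVAP. The mitochondria-specific large-subunit proteins that rose were MRPL58, named above, MRPL39 (2.04 to 6.79), MRPL45 (0.291 to 2.2), MRPL50, MRPL52 and MRPL55. MRPL45 is the protein next to the tunnel exit at the inner membrane. The call of MRPL39 was lost without 16-cell A or morula A (0.0726 and 0.054), that of MRPL45 without 16-cell A or C (0.0738 and 0.065), and that of MRPL2 fell below the fold threshold without morula C (0.99). In the small subunit MRPS34 rose from 0.136 to 1.58 RPKM and MRPS24 from 0.775 to 2.75. MRPS23 returned to 14.1, 21.1 and 22.9 (adjusted p = 0.0285), a call lost without 16-cell A (0.183) or B (0.0503) or morula B (0.0863) or C (0.0527).

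MRPL16 was the 1 gene that fell. Its 16-cell values of 20.6, 10.2 and 15.7 RPKM dropped to 6.42, 5.36 and 7.06 in morulae (-1.14, SE 0.29, adjusted p = 0.00814), still above the 8-cell libraries, and then to 2.35, 1.15 and 3.31 in blastocysts. It thus peaked at the 16-cell stage, with every 16-cell library above every other library. Without 16-cell A the fall missed the threshold (-0.92, adjusted p = 0.0501).

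Of the 28 genes that rose at either step, 5 were called at both (MRPL11, MRPL21, MRPL27, MRPL50 and MRPL55), 10 only at the first and 13 only at the second. These 2 comparisons share the 16-cell libraries, and a difference between the sets was not tested. By class, 7 of 19 large-subunit genes with bacterial counterparts rose at the first step and 9 at the second, and of those without such counterparts 6 of 13 at each. In the small subunit it was 1 of 5 at each step with bacterial counterparts, and 1 and then 2 of 5 without. By symbol 12 of 31 MRPL (38.7%) and 3 of 11 MRPS genes (27.3%) rose at the first step, and 15 (48.4%) and 3 (27.3%) at the second. Of all genes tested 19.4% rose at the first step and 11.4% at the second. At the first step 1 of 5 small-subunit genes in each class was near the share of all genes. A difference between the classes was not tested.

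From morula to blastocyst 15 of the 42 genes fell (35.7%, against 25.3% of all genes) and 0 rose (3.93% of all genes). The median fold change was -0.61, against -0.48 over all genes. The result depends on scaling. Median-ratio scaling gave 3 genes higher and 6 lower (10.1% and 16.2% of all genes), with a median of -0.05 against -0.20 over all genes. Quantile normalization gave 3 and 2 (10.3% and 9.48%), with a median of 0.19 against -0.01. Scaling to the reads of nuclear genes gave 3 and 8 of 43 (9.56% and 17.2%), with a median of -0.06 against -0.23. Under these scalings the share of genes that fell was near or below that of all genes. Without the span 2 of 58 rose and 14 fell on RPM, against 10.8% and 23% of all genes. Listed genes held 24.4, 24.9 and 40.5% of the implied reads in blastocysts A, B and C, against 35.2 to 35.6% in morulae, and the part of this in the fall of the RPKM values was not tested.

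MRPL32, which is matured by a protease before it joins the large subunit, read 24.2, 21.6 and 17.6 RPKM in morulae and 2.71, 0.548 and 7.85 in blastocysts (-2.57, SE 0.42, adjusted p = 8.78e-05). MRPS18B read 13.3, 15.4 and 22.5 and then 1.77, 0.599 and 9.46 (-2.30, SE 0.45, adjusted p = 0.000455). In both genes blastocyst B was lowest and C highest, and the stages did not overlap. Both kept the call under every alternative run. MRPL51 fell by 1.95, MRPL58 by 1.82, MRPL20 by 1.73, MRPL17 by 1.53, MRPL34 by 1.46, MRPS7 by 1.43, MRPL44, which has a ribonuclease-like fold, by 1.21, MRPL46 by 1.21 and MRPL16 by 1.2 on the log2 scale, none with overlapping libraries. All 9 of these lost the call with quantile normalization. MRPL16, MRPL17 and MRPL46 lost it also with median-ratio and nuclear scaling, MRPS7 and MRPL44 with median-ratio scaling, and MRPL16 without blastocyst B (-0.93). MRPL42, MRPL21, MRPL50 and MRPL27 were also called, with libraries that overlapped. Of the 42 genes tested, 28 rose at the 16-cell stage or in the morula, and 11 of these were among the 15. Most of the genes tested had thus risen before. The steps into and out of the morula also share the morula libraries. Whether risen genes fell more often than the others was not tested.

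A pair of genes moved the other way. MRPL14, a large-subunit protein at the face where the subunits meet (chromosome 23, bases 31197990 to 31205805), read 0.0374, 0.042 and 0.12 RPKM at the 8-cell stage, 0.667, 0.532 and 0.618 in morulae and 1.21, 1.89 and 2.64 in blastocysts. MRPL4 read 1.05, 1.12 and 0.643 in morulae and 1.83, 1.72 and 2.17 in blastocysts. In both genes every blastocyst lay above every morula, although neither reached the fold threshold on RPKM (0.83 and 0.59). MRPL14 rose by 1.81 (adjusted p = 0.00404) and MRPL4 by 1.31 (adjusted p = 0.00769) on RPM, and these were the 2 genes of the 58 that rose on that scale.

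Over the whole span from the 8-cell stage to the blastocyst 18 of 42 genes rose (42.9%, against 19.4% of all genes) and 3 fell (7.14%, against 37.6%), with a median of 0.86 against -0.59. More genes rose under other scalings: 30 and 1 lower with median-ratio scaling (30.1% and 24.8% of all genes), 29 and 3 with quantile normalization (26.9% and 26.2%), and 29 and 1 of 43 with nuclear scaling (29.2% and 26.5%). Without the span 35 of 58 rose and 4 fell, against 21.8% and 41.4%. MRPL24 rose most, from 0.8, 0.429 and 1.21 RPKM to 11.8, 5.52 and 42.3 (3.10, SE 0.47, adjusted p = 8.63e-06), followed by MRPL41 (3.01), MRPL55 (2.90), MRPL11 (2.66), MRPL27 (2.23), MRPL35 (2.15), MRPL12 (1.99), MRPL17 (1.97), MRPL21 (1.70), MRPL14 (1.42), MRPS11 (1.26) and MRPL22 (1.24). Without blastocyst C the count of called genes dropped from 21 to 13, and the fold changes of MRPS11 and MRPL22 to 0.93 and 0.79. MRPL14, MRPL28, MRPL4 and MRPS11 rose over this span without a call at either the 16-cell or the morula step.

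MRPL42, MRPL32 and MRPL20 were the genes that fell over this span. MRPL42 went from 11.6, 9.14 and 20.1 RPKM at the 8-cell stage to 1.33, 0.64 and 5.62 in blastocysts (-2.25, SE 0.51, adjusted p = 0.000557). MRPL20 read 37.2, 26.6 and 37.9 and then 11.2, 5.24 and 23.7 (-1.48, adjusted p = 0.00332), and MRPL32 fell by 1.60 (adjusted p = 0.00201). The calls of MRPL20 and MRPL32 were lost with median-ratio scaling (0.194 and 0.0817), with nuclear scaling, and without blastocyst B. From oocyte to blastocyst 17 genes rose (40.5%, against 19.8% of all genes) and the same 3 fell (7.14%, against 28.5%), with a median of 0.68 against -0.33. MRPL17 headed this comparison, from 2.54, 1.96 and 1.61 RPKM to 33.5, 27.2 and 90.7 (3.89, SE 0.40, adjusted p = 8.32e-08). It was followed by MRPL24 (3.50), MRPL41 (3.36), MRPL55 (3.03), MRPL11 (2.87), MRPL27 (2.06), MRPL12 (2.06), MRPL35 (1.72), MRPL14 (1.42), MRPL4 (1.32), MRPS34 (1.27) and MRPS11 (1.23). Without blastocyst C 12 genes were called, and MRPS11 (0.90) and MRPS34 (0.92) fell short of the fold threshold.

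Tested genes with no call in any consecutive comparison numbered 9. Among them MRPS31 stayed between 0.353 and 2.42 RPKM in all libraries and MRPL19 between 0.146 and 1.93. MRPS12, a protein of the decoding centre, had means of 0.0878 RPKM in oocytes and 2.02 ± 1.36 in morulae, with a wide spread among late libraries. MRPS14 and MRPS22 had morula means of 3.6 ± 1.61 and 3.09 ± 0.938. The others were MRPL14, MRPL28, MRPL4 and MRPS11, described above.

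The 16 genes below the RPKM filter were MRPL10, MRPL3, MRPL38, MRPL48, MRPL49, MRPL54, MRPS10, MRPS18A, MRPS2, MRPS21, MRPS25, MRPS27, MRPS28, MRPS5, MRPS6 and MRPS9. Several have long spans and were well covered in reads. MRPS28, whose gene is the longest at 102551 bases, read 85.6, 46 and 62.6 RPM in oocytes and 81.2, 53.3 and 29.5 in morulae, with overlapping libraries. MRPL48 read 16.4, 42 and 22.2 at the 16-cell stage and 123, 108 and 54.3 in morulae, with no overlap (1.81, adjusted p = 0.0116). MRPS21 read 1.49, 1.66 and 2.95 at the 8-cell and 12.7, 9.25 and 6.48 at the 16-cell stage (1.77, adjusted p = 0.00148). MRPS18A, of the large subunit, read 1.35, 4.7 and 1.6 at the 16-cell stage and 30.9, 11.7 and 8.12 in morulae (2.24, adjusted p = 0.00512). MRPL10 was the sparsest, with 0 to 40 reads in a library, and was not called between consecutive stages on RPM.

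Cytosolic ribosomal proteins and nuclear-encoded respiratory chain subunits were set beside the mitochondrial ribosome, since the first builds the other ribosome of the cell and the second joins the products of mitochondrial translation. Of 28 cytosolic ribosomal protein genes tested, 23 rose at the 16-cell stage (82.1%, against 19.4% of all genes) and 25 in the morula (89.3%, against 11.4%). Their medians were 1.57 and 1.88, and 4 of the 28 fell in the blastocyst (14.3%, against 25.3% of all genes). Reads of near-identical copies make these values uncertain. Of 36 respiratory chain genes, 7 rose at the 16-cell stage (19.4%, the same as all genes) and 19 in the morula (52.8%, against 11.4%), with medians of 0.16 and 1.10. In the blastocyst 6 rose (16.7%, against 3.93%) and 2 fell, with a median of 0.34 where that of the 42 mitochondrial ribosomal protein genes was -0.61 on the same scale. Summed respiratory chain levels were 4175 to 8185 RPM in morulae and 7218 to 13310 in blastocysts. None of these differences between sets was tested.

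Of 4 tested genes for proteins of the same ribosome that carry other names, 3 rose in the morula, against 11.4% of all genes. AURKAIP1, of the small subunit, read 2.07, 5.17 and 1.61 RPKM at the 16-cell stage and 6.95, 7.62 and 12.1 in morulae (1.39, adjusted p = 0.00835). CHCHD1, of the small subunit, read 5.42, 6.34 and 11.6 and then 32.8, 26.4 and 20 (1.68, adjusted p = 0.00516), and GADD45GIP1, of the large subunit, rose from 2.57 to 10.8. DAP3, a GTP-binding protein of the small subunit, fell at the 16-cell stage. Its RPM values were 66.2, 73.6 and 61.2 at the 8-cell and 6.33, 15.6 and 28.3 at the 16-cell stage (-2.15, SE 0.44, adjusted p = 0.000624), and 16.8, 15.7 and 28.4 in morulae.

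Of 8 tested genes that transcribe the mitochondrial genome or regulate nuclear genes for mitochondria, 6 rose at the 16-cell stage (GABPA, MTERF1, MYC, TEFM, TFB2M and YY1). The median over the 8 was 2.06, and 6 of the 8 fell in the blastocyst. Of all genes 19.4% rose at the first of these steps and 25.3% fell at the second. GABPA, a subunit of a transcription factor for nuclear genes of mitochondrial proteins, read 0.997, 1.07 and 1.84 RPKM at the 8-cell and 28.4, 18.7 and 7.85 at the 16-cell stage (2.92, SE 0.33, adjusted p = 8.73e-07), 4.88, 7.05 and 7.37 in morulae and 0.294, 0.078 and 1.07 in blastocysts. TFB2M, the initiation factor of mitochondrial transcription, read 0.35, 0.35 and 0.238 and then 3.3, 9.71 and 2.35 (2.03, adjusted p = 4.25e-05). TEFM, the elongation factor, read 3.19, 3.77 and 3.92, then 18.2, 25.9 and 14 (2.10, adjusted p = 0.000651), and fell from 24.5, 30.3 and 29.8 in morulae to 2.24, 0.494 and 7.96 in blastocysts.

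TFAM, which packages mitochondrial DNA, was too low in RPKM to be tested and stood at 0.468, 0.467 and 0.849 RPM at the 8-cell and 36.2, 47 and 24.2 at the 16-cell stage (4.49, SE 0.39, adjusted p = 1.75e-08). POLRMT, the mitochondrial RNA polymerase, stood at 0.765, 0.674 and 0.45 RPM, then 1.58, 6.9 and 4.32 (1.55, adjusted p = 0.00258), and 12.5, 16.1 and 9.83 in morulae. NRF1, a transcription factor of nuclear genes for mitochondria, stood at 4.97, 8.92 and 8.09 and then 13.1, 9.25 and 10.4, without a call (adjusted p = 0.364). TUFM, the elongation factor that brings transfer RNA to the mitochondrial ribosome, stood at 1.97, 1.99 and 0.459 in oocytes and 9.83, 11.6 and 12.3 at the 2-cell stage (2.38, adjusted p = 0.00311), and rose again in the morula (1.70, adjusted p = 0.0101).

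**Figure D5:**
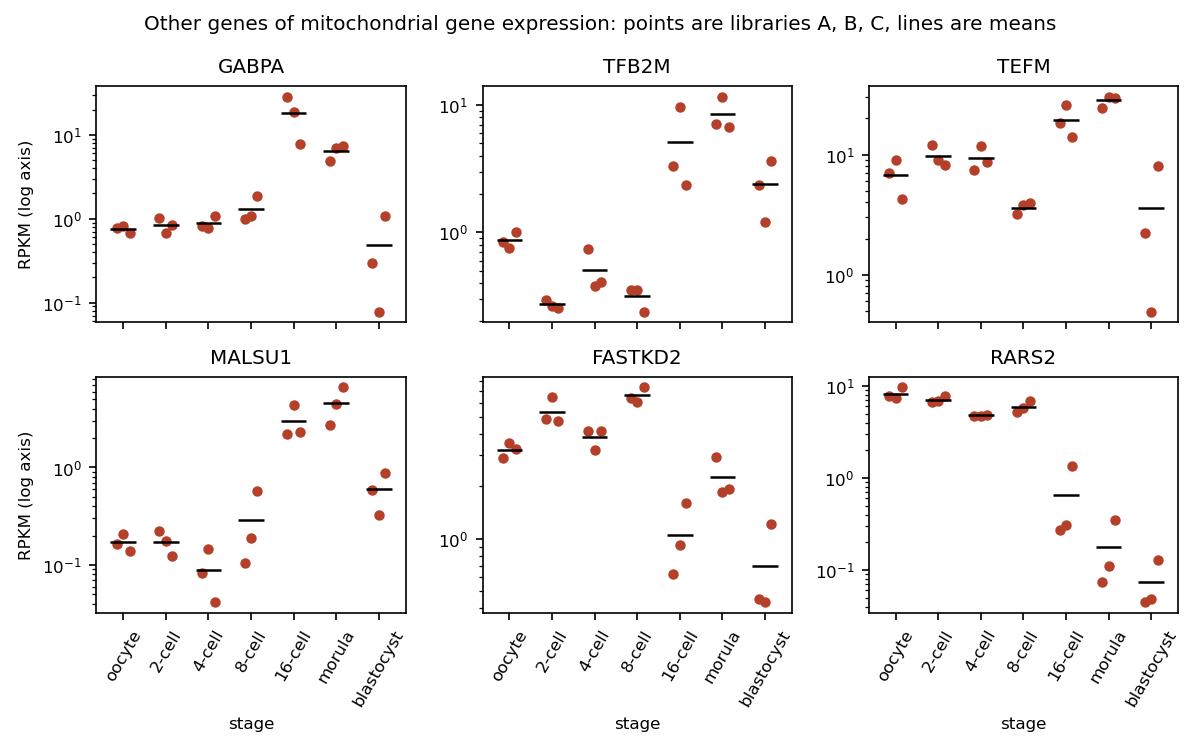
Deposited RPKM (log axis, own scale in each panel) of 6 genes that serve the mitochondrial ribosome or mitochondrial transcription, with points for libraries A, B and C and lines for means. GABPA, TFB2M, TEFM and MALSU1 are high at the 16-cell stage and in morulae, while FASTKD2 and RARS2 are high up to the 8-cell stage.

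Of 11 assembly factors of the mitochondrial ribosome, 4 fell at the 16-cell stage (ERAL1, FASTKD2, MTERF4 and TFB1M) and 1 rose, with a median of -0.58. Of all genes 15.9% fell and 19.4% rose. Among the 25 tested on RPM 7 rose and 3 fell (17.1% and 22.4% of all genes), so the larger count of falls held on the RPKM scale only. FASTKD2, which binds the large ribosomal RNA, read 6.4, 6.09 and 7.35 RPKM at the 8-cell and 0.627, 0.919 and 1.6 at the 16-cell stage (-1.92, SE 0.24, adjusted p = 3.33e-06). TFB1M, which methylates the small ribosomal RNA, read 2.21, 2.16 and 3.28 and then 0.371, 0.366 and 0.987 (-1.18, adjusted p = 0.000118). MALSU1, which docks on MRPL14 and keeps immature large subunits from joining, read 0.105, 0.191 and 0.579 and then 2.22, 4.38 and 2.32 (1.60, adjusted p = 1.23e-05), and fell in the blastocyst to 0.593, 0.327 and 0.875 while MRPL14 was at its highest there. GTPBP10, a GTPase of large-subunit assembly, rose in the morula from 0.254, 1.14 and 0.239 to 4.44, 2.91 and 2.64 (adjusted p = 0.00044).

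Of 9 translation factors tested, 2 rose at the 16-cell stage, near the share of all genes (19.4%), and 0 fell (15.9%). Their median was -0.32. Among the 15 tested on RPM 3 rose and 4 fell, against 17.1% and 22.4% of all genes. MTRF1L, a release factor, rose from 0.806, 0.705 and 0.635 to 6.86, 5 and 2.74 RPKM (1.71, adjusted p = 1.53e-05). C12orf65, a factor that rescues stalled ribosomes, rose from a mean of 0.524 to 2.67. Of 2 mitochondrial aminoacyl-tRNA synthetases tested, 0 rose and 1 fell, against 19.4% and 15.9% of all genes. Among the 12 tested on RPM 3 rose and 3 fell, against 17.1% and 22.4%. The gene that fell on RPKM was RARS2, which charges the arginine transfer RNA. It went from 5.27, 5.78 and 6.8 RPKM to 0.273, 0.306 and 1.36 (-2.13, SE 0.23, adjusted p = 5.48e-07). Its 16-cell libraries were far below all earlier ones, and in blastocysts it read 0.0447, 0.0481 and 0.128.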

How the data were processed

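The authors deposited 1 table of RPKM values with a column per library. The submitters' processing notes name FastQC, STAR 2.5.3a and Partek, without role or order. Not given in the sources used here: genome build, strandedness and counting rule. Reads of overlapping genes (11 of the 58) and near-identical copies may therefore be shared. Every value carries an offset of 0.01. After its subtraction and multiplication by the gene span, between 94.8 and 96.5% of each library's values under 20 reads lay within 0.05 of a whole number of steps, which gave the reads per gene and library. Intervals and low counts cover counting error only, since molecules were not marked.

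Genes that reached 1 RPKM in 3 or more libraries were tested on log2(RPKM + 1), a scale that understates changes of low genes, with limma 3.58.1 (trend and robust) in R 4.3.3, in 1 model of 7 stages with 14 residual degrees of freedom. Tests were two-sided with Benjamini-Hochberg adjustment over all genes tested. Read counts were also scaled to RPM (reads per 1000000 reads in listed genes) and tested the same way. The limma script was tested on simulated data. Samples were grouped by title. Replicate letters were not taken as pairs: correlations of deviations in 63 same-letter pairs ran from -0.41 to 0.318, and 18 exceeded 0.1. The members, comparisons and lists were chosen with earlier results of these data known. In each comparison the text gives all genes called where at most 12 moved in a direction, otherwise up to 12 with the largest change and no overlap between libraries, and up to 3 per list of other mitochondrial genes. Further names complete the account of the 58. All 58 symbols matched RefSeq gene names. Alternatives were a pseudocount of 0.1, no filter, no span, median-ratio scaling, quantile normalization, a replicate block, leaving out libraries, and, chosen after seeing the data, scaling to reads of nuclear genes (also for the summed levels). Figures used Python 3.11.15, pandas 2.3.3 and matplotlib 3.10.9.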

Additional observations from a re-analysis of the deposited data

How the results depend on the processing

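No called direction reversed. Of 72 results for single named genes, 46 kept their call under every alternative, and 71 of 1000 alternative values lost it. The count of called genes moved by 1.5 times or more as follows, and the cause was not tested. From oocyte to 2-cell stage (3 called) it was 5 with a pseudocount of 0.1, 7 without the span, 1 with median-ratio scaling, 1 with quantile normalization, 1 with nuclear scaling, 2 with the replicate block and 1 to 2 without single libraries. From the 4-cell to the 8-cell stage (0) it was 2 with quantile normalization. From the 8-cell to the 16-cell stage (17) it was 30 without the span, which tests 58 genes in place of 42. From the 16-cell stage to the morula (19) it was 12 with quantile normalization and 10 to 20 without single libraries. From morula to blastocyst (15) it was 9 with median-ratio scaling, 5 with quantile normalization and 10 to 21 without single libraries. From oocyte to 8-cell stage (1) it was 3 with a pseudocount of 0.1, 7 without the span, 4 with median-ratio scaling, 4 with quantile normalization, and 1 to 2 without single libraries. From the 8-cell stage to the blastocyst (21) it was 39 without the span, 32 with quantile normalization and 13 to 25 without single libraries. From oocyte to blastocyst (20) it was 34 without the span and 12 to 24 without single libraries. In every other comparison the replicate block, a paired fit by letter, gave the same count. Scaling to nuclear gene reads was chosen after seeing the data. The percentage of implied reads in listed genes varied most among blastocysts (SD 9.17), and a gene spanning many kilobases could be tested only without the span.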

Other observations

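Of the 58 genes, 8 start within 1000 bases of a gene that runs the opposite way, as the table places them. MRPL46 and MRPS11 are neighbours of each other, with 148 bases between them on chromosome 21. MRPL46 read 1.26, 2.69 and 1.65 RPKM at the 16-cell stage and 0.822, 0.967 and 2.43 in blastocysts, while MRPS11 read 0.17, 0.43 and 0.32 and then 1.04, 1 and 3.02. MRPL47, 196 bases from NDUFB5, a subunit of respiratory complex I, rose in the morula, where NDUFB5 read 3.56, 2.35 and 0.598 RPKM without a call (adjusted p = 0.136). MRPL32 lies 33 bases from a gene without a symbol, ENSCHIG00000012524. Its mean RPKM was 0.332 in 8-cell embryos, 6.34 in 16-cell embryos and 28 in morulae, and it rose at both steps (2.32 and 2.05 on the log2 scale), whereas MRPL32 was not called at either (0.66 and 0.30). Next to MRPS7, GGA3 stayed at or below 0.112 RPKM in every library.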
